A study of Astyanax mexicanus with 20 samples.

Results

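Skeletal muscle of the river-dwelling surface form of the Mexican tetra, Astyanax mexicanus, was sampled for RNA sequencing 7 days after injection of cardiotoxin, a venom peptide that destroys muscle fibres. The libraries were chosen by their labels: 2 surface libraries at 7 days post injury (dpi), of 20 libraries in the series, were set against 3 surface control libraries injected with phosphate-buffered saline (PBS). Surface muscle at 1 dpi (cardiotoxin, 3 libraries), surface muscle at 14 dpi (cardiotoxin, 2 libraries), and muscle of troglobitic cavefish at 7 dpi (cardiotoxin, 2 libraries) with its PBS controls (3 libraries) served for further comparisons. The controls have no stated day after injection, so the saline and cardiotoxin groups are not matched in time. A protocol field of the labels names free-running darkness for all libraries and another text describes sampling around the clock with 3 fish per time, whereas 2 libraries are present at 7 dpi. The labels do not tie each library to its own fish, and the p-values therefore cover library-to-library spread that may be technical.

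Vertebrate skeletal muscle rebuilds itself after toxin injury from satellite cells, muscle stem cells that lie beside the fibre. These cells divide as myoblasts, switch on myogenin, and fuse through the membrane proteins myomaker and myomixer into young fibres. Young fibres first build their sarcomeres from embryonic and cardiac forms of actin, myosin and troponin, and later replace them with the adult forms. Macrophages enter to clear dead fibres and later release factors on which the muscle stem cells depend.

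Levels below are TPM, a share of transcripts normalised for transcript length, as estimated by the authors with RSEM and divided here by a scaling factor per library. Log2 changes compare log2(scaled TPM + 1), which understates the change of low genes, and a gene is called where limma's Benjamini-Hochberg adjusted p is under 0.05 across all 16884 genes tested. The fit pools the spread within all 8 groups of the 20 libraries, so an SE can reflect libraries outside the comparison. TPM fixes the sum of each library, so sequencing depth is unknown and no counting error can be given. The 7 dpi libraries had 14288 and 13492 genes at 1 TPM or more, and the controls 12154 to 12840. Correlations across genes were 0.962 between the 7 dpi libraries and 0.947 to 0.958 among controls. Of 7 skeletal muscle marker genes 6 were found by name, and pvalb4, the fast-fibre parvalbumin, was the most abundant transcript in all 5 libraries (8.27% and 6.72% of TPM at 7 dpi, 12.6% to 15.3% in controls). Marker genes of other cell types were present too: the 4 macrophage markers tested summed to 120 and 80.0 TPM at 7 dpi and 34 to 46.7 TPM in controls, Schwann cell markers to 62.9 and 57.9 TPM against 125 to 153 TPM, and skin markers to 91.8 and 153 TPM against 196 to 354 TPM. The part that such cells have in the changes of muscle genes was not tested.

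Of the genes tested, 525 (3.11%) rose and 250 (1.48%) fell at 7 dpi relative to control. Counts of list members called against control, given below, are to be set beside these shares. The members and lists were chosen with earlier results of these data known, so a count above these shares is no test of a list. Unscaled TPM gave 677 higher and 41 lower genes, and moved the median change of all genes to 0.28 from 0.03 on the log2 scale. Each of the 525 and 250 called genes had both 7 dpi libraries on one side of all 3 controls, as did 3247 and 2526 of all genes tested. The median called rise was 1.28 and the median called fall -1.11. The calls leaned on 7 dpi replicate 1: without it 66 genes were called, and 432 of the 525 genes that rose were higher in replicate 1 than in replicate 2. Fitting only these 5 libraries, with 3 residual degrees of freedom in place of 12, left 13 calls, among them actc1a, ankrd1b, ndufa4 and rfx6. A set of 44 genes, 39 higher and 5 lower, stayed called whichever of the 5 libraries was left out. These are referred to as steady calls, and 29 of them have a symbol.

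**Figure D1:**
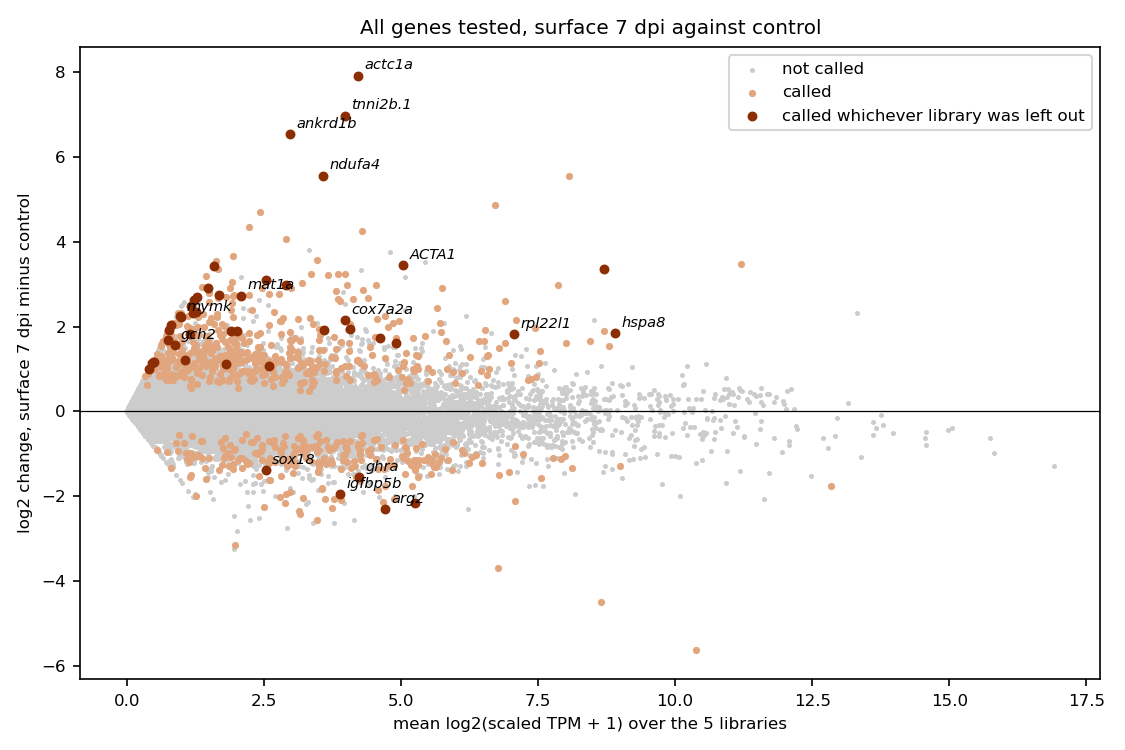
Log2 change at 7 dpi relative to control (y axis) against mean log2(scaled TPM + 1) over the 5 libraries (x axis), one point per gene tested. Dark points are the 44 steady calls, pale orange points the remaining called genes. The actin gene actc1a, the troponin gene tnni2b.1, ankrd1b and ndufa4 lie highest among the steady calls, at 5.56 to 7.92, and arg2, igfbp5b, ghra and sox18 lie below 0.

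The genes of myoblast differentiation and fusion were split. The fusion gene mymk and the differentiation factor myog rose at 7 dpi, while the determination factor myod1 and the stem cell factor pax7b did not pass the test. mymk, which encodes myomaker, had 4.90 and 3.23 TPM at 7 dpi, against 0.204, 0 and 0 TPM in controls. Both 7 dpi libraries were above every control, and the log2 change was 2.23 (SE 0.21, adjusted p = 6.67e-05). myog, which drives the last step of myoblast differentiation, had 63.3 and 47.0 TPM at 7 dpi, against 17.7, 4.56 and 0.943 TPM in controls. The groups did not overlap, but the controls ranged widely, and the log2 change of 3.24 had an SE of 0.75 (adjusted p = 0.0264). jam2a, a junction protein that myoblasts need for fusion in zebrafish, had 1.69 and 1.24 TPM at 7 dpi and 0.393 to 0.512 TPM in controls (log2 change 0.74, SE 0.14, adjusted p = 0.0118). igfn1.3 also rose, by 2.59 (SE 0.48, adjusted p = 0.00991), with 14.7 TPM in 7 dpi replicate 1 and 3.36 TPM in replicate 2, above 0.160 to 0.512 TPM in controls. myod1 had 116 and 132 TPM at 7 dpi and lay within its controls at 97.5, 253 and 89.4 TPM (log2 change -0.08, SE 0.51, adjusted p = 0.969). myf5, a determination factor of myoblasts, had 5.61 and 4.64 TPM at 7 dpi, against 4.15, 1.99 and 0.943 TPM in controls (0.98, SE 0.28, adjusted p = 0.0608). pax7b, the transcription factor of satellite cells, had 1.99 and 1.04 TPM against 1.69, 0.393 and 0.854 TPM (adjusted p = 0.463), and pax7a was below the filter. myf6, a factor of formed fibres, changed by 0.91 (SE 0.45, adjusted p = 0.274).

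Of 30 myogenic and fusion genes tested 4 rose and 0 fell, with a median log2 change of -0.25, which was 0.09 without scaling. Of 19 genes of muscle stem cells and their niche 5 rose and 1 fell (median -0.05, and 0.24 without scaling). ncam1a, a cell adhesion molecule of myoblasts, had 7.70 and 5.70 TPM at 7 dpi and 1.15 to 1.66 TPM in controls (log2 change 1.68, SE 0.31, adjusted p = 0.00923). Its paralogue ncam1b went the other way, with 0.392 and 0.400 TPM against 1.45 to 2.08 TPM (-0.99, SE 0.23, adjusted p = 0.0260). cdh15, the M-cadherin of myoblasts and satellite cells, had 18.7 and 9.29 TPM at 7 dpi and 3.28 to 5.18 TPM in controls (1.41, SE 0.33, adjusted p = 0.0286). The receptor genes notch1a and met rose by 0.82 and 0.95. chrna1, the alpha subunit of the muscle acetylcholine receptor, had 21.2 and 15.3 TPM against 3.13, 2.05 and 0.754 TPM (2.76, SE 0.65, adjusted p = 0.0277). Without 7 dpi replicate 1 the adjusted p was 0.216 for myog, 0.168 for jam2a, 0.178 for igfn1.3 and 0.137 to 0.335 for the 6 stem cell genes, and without replicate 2 it was 0.0660, 0.0661, 0.0573 and 0.0787 for myog, chrna1, met and ncam1b. myog, chrna1, cdh15, notch1a, met and ncam1b each lost their call without 2 of the 3 controls in turn, with adjusted p of 0.0514 to 0.0987 where lost. ncam1b was not called without scaling (0.108), nor met after quantile normalization (0.0548) or without the filter (0.0586).

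The list of developing and cardiac-type sarcomere genes, which also holds a fast-type troponin I, included the largest rises among the steady calls. actc1a, a cardiac alpha-actin, had 516 and 487 TPM at 7 dpi, against 0.641, 0.596 and 2.41 TPM in controls. Both injured libraries stood together and far above all controls (log2 change 7.92, SE 1.16, adjusted p = 0.00248). tnni2b.1, a fast-type troponin I, had 346 and 235 TPM at 7 dpi, against 4.89, 0.405 and 0.399 TPM in controls (6.98, SE 0.70, adjusted p = 0.000109). tnnt2c, a cardiac-type troponin T, had 52.1 and 30.0 TPM at 7 dpi, against 1.33, 0 and 5.01 TPM in controls (4.07, SE 0.70, adjusted p = 0.00714). The myosin heavy chain gene myhb was higher in 7 dpi replicate 2 (43.2 TPM) than in replicate 1 (17.5 TPM), and both were above the controls at 0.167 to 0.684 TPM (4.34, SE 0.85, adjusted p = 0.0138). myl4, an atrial and embryonic myosin light chain, had 0.621 and 1.44 TPM at 7 dpi and was listed at 0 in all 3 controls (adjusted p = 0.00610). Of 27 genes on this list 5 rose and 0 fell, and its median was 0.11, but -0.14 without control replicate 1 and -0.23 without 7 dpi replicate 1. Several cardiac-type members varied within the controls as much as between groups. tnnt2e, for example, had 306 and 90 TPM at 7 dpi and 57.3, 393 and 161 TPM in controls (adjusted p = 0.983; this example was chosen after its values were seen).

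Of 51 genes of sarcomere assembly and strain response 2 rose and 1 fell, beside 3.11% and 1.48% of all genes tested. ankrd1b, an ankyrin repeat protein induced by strain, had 160 and 88.2 TPM at 7 dpi, against 0.728, 0.226 and 0 TPM in controls (log2 change 6.54, SE 0.59, adjusted p = 6.67e-05). Its paralogue ankrd1a had 163 and 213 TPM at 7 dpi, against 11.8, 13.2 and 23.0 TPM in controls. These libraries did not overlap either, but the change of 3.52 had an SE of 1.16 and missed the threshold (adjusted p = 0.0958). That SE draws on all 20 libraries, and ankrd1a differed widely within other groups. It had 87.8 and 1992 TPM in cave muscle at 14 dpi, 6.32 and 70.9 TPM in surface muscle at 14 dpi, and 38.5, 240 and 19.2 TPM in cave controls. With only the compared groups fitted the adjusted p was 0.0659. pdlim3b, a Z-disc protein that binds alpha-actinin, had 172 and 187 TPM at 7 dpi and 19.3 to 31.2 TPM in controls (2.90, SE 0.60, adjusted p = 0.0180). nrap, a scaffold of assembling myofibrils, fell by 0.81 (SE 0.19, adjusted p = 0.0268) to 98.1 and 91.9 TPM at 7 dpi, against 195, 160 and 150 TPM in controls. The Z-disc gene csrp3 was not called (-0.90, adjusted p = 0.380). Leaving out 7 dpi replicate 1 gave an adjusted p of 0.124 for tnnt2c, 0.0762 for myhb, 0.147 for pdlim3b and 0.168 for nrap, and without replicate 2 it was 0.0726, 0.0620 and 0.0974 for myhb, pdlim3b and nrap. nrap was also lost without control replicate 1 (0.0733) and without scaling (0.423), and tnnt2c with a pseudocount of 0.1 (0.0736).

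**Figure D2:**
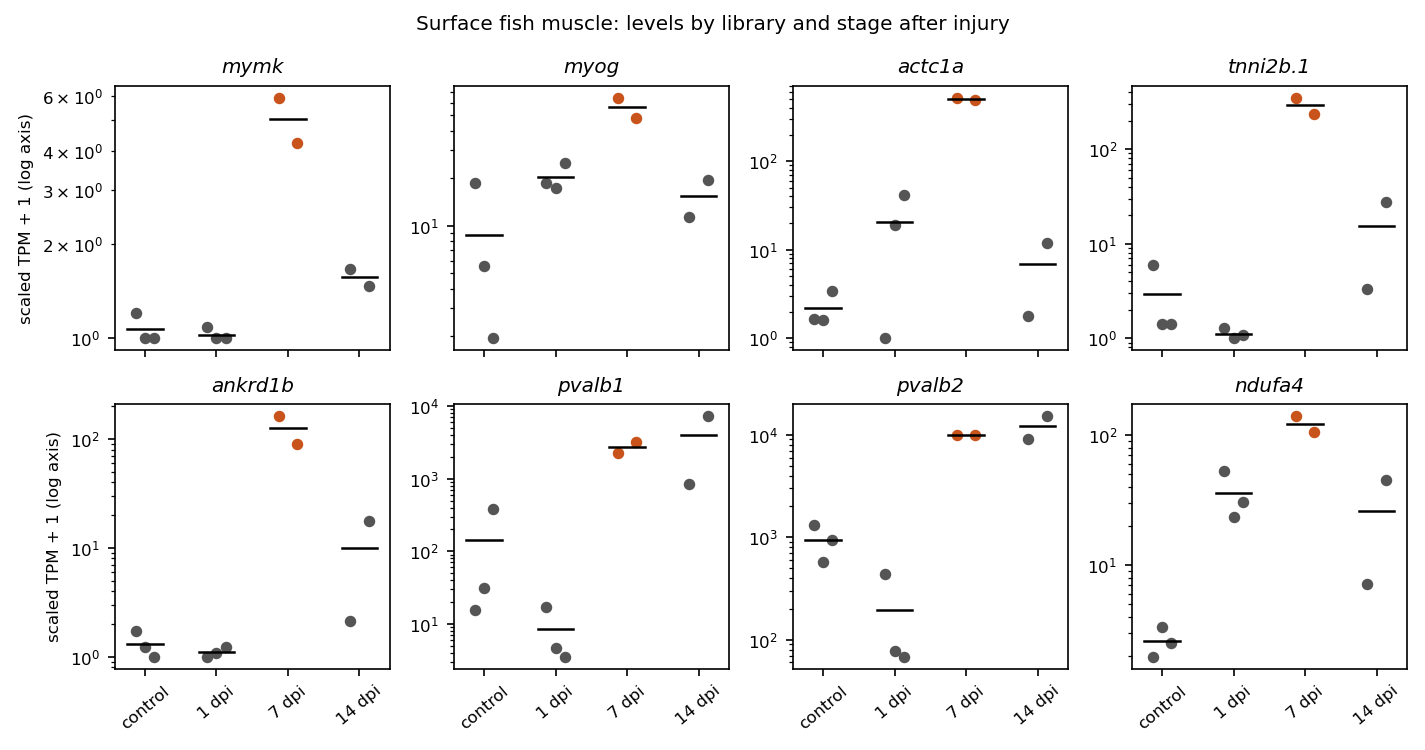
Scaled TPM + 1 (log axes that differ between panels) of 8 genes in every surface library, by stage. Points are libraries, 7 dpi in orange, and black lines are group means. mymk, actc1a, tnni2b.1 and ankrd1b are highest in both 7 dpi libraries, whereas the means of pvalb1 and pvalb2 are higher at 14 dpi than at 7 dpi.

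Of these genes, mymk, actc1a and ankrd1b each had their highest mean among the surface stages at 7 dpi. mymk averaged 0.0680, 0.0276, 4.06 and 0.570 TPM in controls and at 1, 7 and 14 dpi. actc1a averaged 1.21, 19.5, 501 and 5.89 TPM, and ankrd1b 0.318, 0.108, 124 and 8.94 TPM, over the same stages. Some of these means join unlike libraries. actc1a had 0, 18.2 and 40.5 TPM at 1 dpi and 0.790 and 11.0 TPM at 14 dpi, and ankrd1b 1.11 and 16.8 TPM at 14 dpi. In each of the 3 genes both 7 dpi libraries were above every other surface library. The rise of tnni2b.1 over 1 dpi was 8.01 on the log2 scale (adjusted p = 2.33e-05), that of ankrd1b 6.76 (adjusted p = 2.33e-05), of mymk 2.28 (adjusted p = 3.13e-05) and of actc1a 5.76 (adjusted p = 0.0133). myog did not differ from 1 dpi by this test (1.47, adjusted p = 0.303). The 14 dpi levels were not tested against 7 dpi.

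Among adult fast-fibre genes, parvalbumins moved apart. pvalb1 and pvalb2, which encode calcium-buffering parvalbumins, rose, while pvalb4, the most abundant one, was lower in both 7 dpi libraries without passing the test. pvalb1 had 2269 and 3211 TPM at 7 dpi, against 14.5, 30.2 and 384 TPM in controls (log2 change 5.56, SE 1.17, adjusted p = 0.0184). pvalb2 had 10039 and 9943 TPM at 7 dpi, against 1326, 579 and 936 TPM in controls (3.48, SE 0.78, adjusted p = 0.0236). Both injured libraries exceeded every control in each gene, as in all genes called higher. pvalb4 had 78994 and 65553 TPM at 7 dpi, against 211110, 149564 and 169690 TPM in controls, with no overlap but a change of -1.28 with an SE of 0.58 (adjusted p = 0.226). Relative to 1 dpi, pvalb1 was higher by 8.69 (adjusted p = 0.00107) and pvalb2 by 6.24 (adjusted p = 0.000688). At 14 dpi pvalb1 averaged 4026 TPM and pvalb2 12139 TPM.

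Of 43 fast-fibre genes tested 3 rose (pvalb1, pvalb2 and the tropomyosin gene TPM1) and 2 fell, with a median log2 change of -0.42 that shrank to -0.07 without scaling and -0.10 after quantile normalization. The summed level of the list was 285275 and 279465 TPM at 7 dpi, against 590961, 416028 and 429904 TPM in controls, so both injured libraries were below every control. The members that fell belong to the coupling of membrane voltage to calcium release. cacna1sb, the voltage sensor, fell by 1.1 on the log2 scale (SE 0.25, adjusted p = 0.0220), and jph1a, a junctophilin that holds the triad together, by 1.06 (SE 0.25, adjusted p = 0.0311). The muscle creatine kinase gene ckma had 16754 and 18381 TPM at 7 dpi and 29493 to 32516 TPM in controls (-0.80, SE 0.33, adjusted p = 0.179). In bulk muscle, fewer cells of a type and less RNA per cell cannot be told apart. Of 13 genes of slow and oxidative fibres 0 were called by limma in either direction, with a median of -0.46. Of these, 5 had an unadjusted p under 0.05, as did 3437 of all 16884 genes tested. After quantile normalization 1 of the 13 was called lower.

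Actins and fast myosin light chains showed further differences between genes of the same kind. Their sequences were not compared, and the counting may have divided reads between such genes uncertainly. One ACTA1 gene (ENSAMXG00000003516) had 118 and 159 TPM at 7 dpi, against 16.6, 8.95 and 10.5 TPM in controls, and was a steady call (log2 change 3.45, SE 0.49, adjusted p = 0.00207). The abundant ACTA1 gene (ENSAMXG00000012734) had 45276 and 39133 TPM at 7 dpi, against 93685, 56036 and 51884 TPM in controls (-0.62, SE 0.77, adjusted p = 0.724). MYLPF had 28446 and 24899 TPM at 7 dpi and 3709 to 6942 TPM in controls without being called (2.31, SE 1.08, adjusted p = 0.243). Its cave controls, which also enter the SE, had 194, 4603 and 4695 TPM. With only the compared groups fitted the adjusted p of MYLPF was 0.113. mylpfa, which encodes the same kind of regulatory light chain, changed by -0.99 (SE 0.57, adjusted p = 0.351). The 3 genes ACTA1 ENSAMXG00000012734, MYLPF and mylpfa were chosen after their values were seen. The adjusted p without 7 dpi replicate 1 was 0.137 for pvalb1, 0.183 for pvalb2, 0.190 for TPM1, 0.283 for jph1a and 0.130 for cacna1sb. Leaving out one of the other 4 libraries gave 0.0504 to 0.191 where a call was lost, and each of these 5 genes lost its call without at least 1 of them. cacna1sb and jph1a were not called without scaling (0.126 and 0.163), nor TPM1 after quantile normalization (0.0570), with a pseudocount of 0.1 (0.0521) or without the filter (0.0697).

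**Figure D3:**
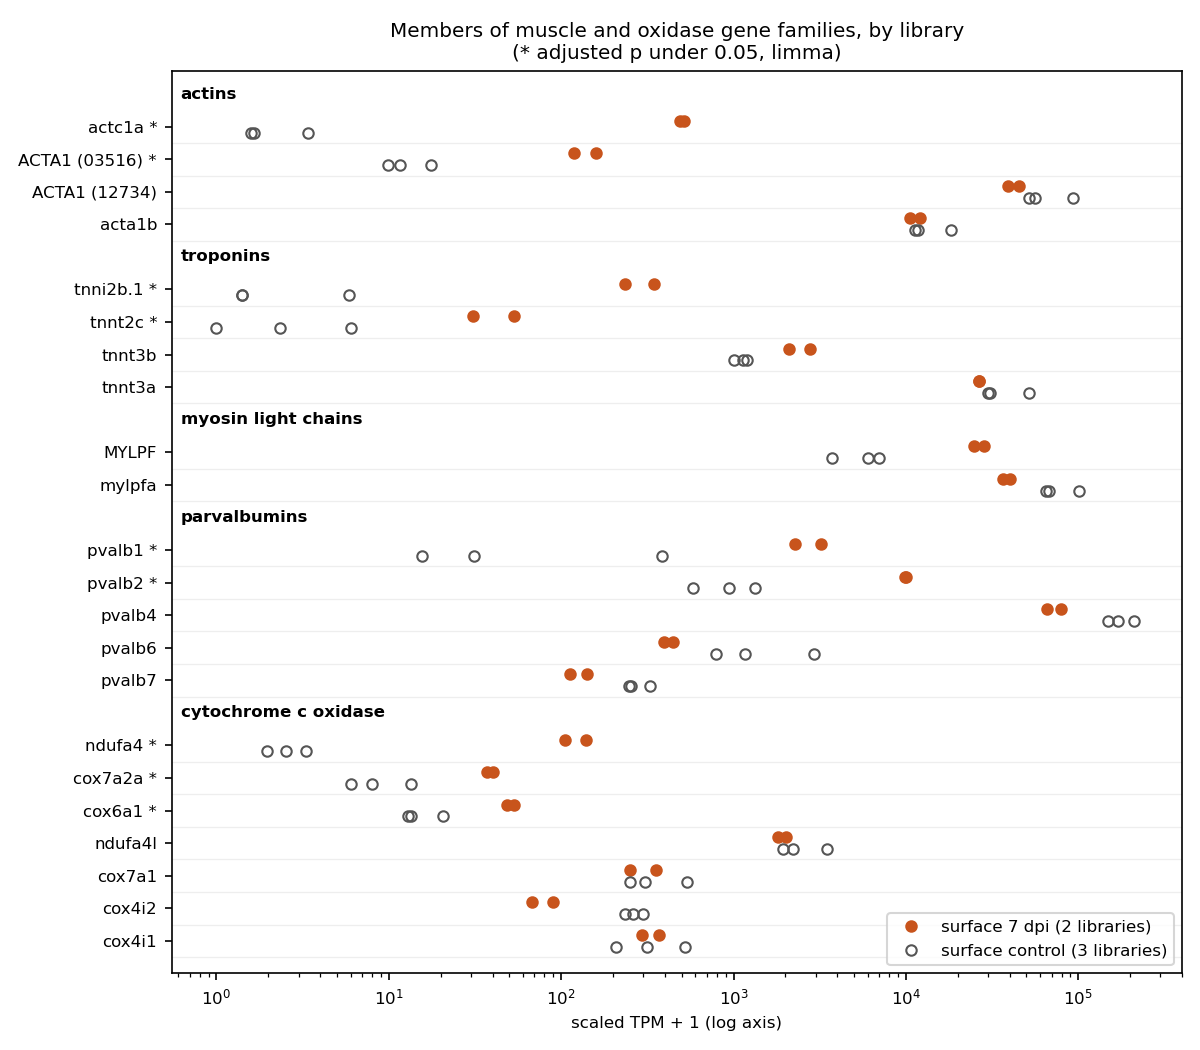
Scaled TPM + 1 (log axis) of members of 5 gene families in surface libraries, 7 dpi (filled orange) above control (open grey) for each gene; asterisks mark called genes. Within each of the actin, troponin, parvalbumin and oxidase families, called members lie right of their controls while the most abundant members lie left of them or overlap them.

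Among respiratory genes, 3 small subunits of cytochrome c oxidase, the last complex of the mitochondrial chain, were steady calls, and no other of the 101 genes tested was called by this fit (3 higher, 0 lower, median -0.14, and 0.22 without scaling). ndufa4, which encodes an oxidase-associated subunit, had 138 and 104 TPM at 7 dpi, against 0.976, 2.32 and 1.53 TPM in controls (log2 change 5.56, SE 0.60, adjusted p = 0.000224). cox7a2a had 36.0 and 39.2 TPM at 7 dpi, against 5.05, 12.5 and 6.95 TPM in controls (2.16, SE 0.27, adjusted p = 0.000878). cox6a1 had 52.2 and 47.8 TPM at 7 dpi, against 11.9, 19.6 and 12.4 TPM in controls (1.74, SE 0.25, adjusted p = 0.00179). In mammals COX7A2 and COX6A1 are the widely expressed forms of subunits whose other forms are used by heart and skeletal muscle. A gene with the symbol COX7A2 (ENSAMXG00000033504) had 50.3 and 47.5 TPM at 7 dpi and 24.4 to 30.8 TPM in controls and was not called (0.78, SE 0.29, adjusted p = 0.145). The muscle form cox7a1 did not separate the groups, with 249 and 354 TPM at 7 dpi and 250, 537 and 306 TPM in controls (adjusted p = 0.752). The related gene ndufa4l had 1814 and 2008 TPM at 7 dpi and 1944, 3496 and 2213 TPM in controls (-0.37, adjusted p = 0.486). cox4i2 was lower in both 7 dpi libraries, at 88.2 and 67 TPM against 235 to 296 TPM, but missed the threshold (-1.76, SE 0.51, adjusted p = 0.0612). COX7A2, cox7a1, ndufa4l and cox4i2 were chosen after their values were seen.

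Of 67 genes of glycolysis and glycogen 1 rose and 4 fell (median -0.27, and 0.02 without scaling). The 4 that fell act on glycogen. ppp1r3cb, a subunit that directs protein phosphatase 1 to glycogen, had 41.0 and 73.1 TPM at 7 dpi, against 260, 267 and 204 TPM in controls (log2 change -2.12, SE 0.35, adjusted p = 0.00596). ppp1r3ab, of the same family, fell by 1.14, the phosphorylase kinase subunit gene phkb by 1.02 and the branching enzyme gene gbe1b by 0.93. gpia, the second enzyme of glycolysis, had 44.4 and 42.5 TPM at 7 dpi and 13.7 to 21.2 TPM in controls (1.26, SE 0.20, adjusted p = 0.00534). Without 7 dpi replicate 1 none of these 5 calls held, with adjusted p from 0.0717 for gpia to 0.322 for gbe1b, and ppp1r3ab, phkb and gbe1b were lost without control replicate 2 too (0.0623, 0.0827 and 0.0740). phkb and gbe1b were further lost without 7 dpi replicate 2 or control replicate 1, at 0.0513 to 0.0867, gbe1b without control replicate 3 (0.0706), and all 3 without scaling (0.134 to 0.273). gbe1b was also lost without the filter (0.0518).

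Genes of arginine and creatine metabolism changed in opposite directions around arginine. arg2, the mitochondrial arginase that breaks arginine down, had 12.6 and 6.44 TPM at 7 dpi, against 54.0, 34.3 and 61.8 TPM in controls. Both injured libraries were below every control, and this fall of 2.30 (SE 0.32, adjusted p = 0.00169) was the largest among steady calls with a symbol. ASS1 and asl, the pair of enzymes that make arginine from citrulline, rose. ASS1 had 73.8 and 41.0 TPM at 7 dpi, against 15.07, 3.82 and 3.62 TPM in controls (2.98, SE 0.48, adjusted p = 0.00512), and asl had 10.8 and 6.36 TPM against 2.63 to 3.73 TPM (1.14, SE 0.22, adjusted p = 0.0132). otc, which makes citrulline, had 75.7 and 52.2 TPM at 7 dpi and 3.94 to 18.3 TPM in controls (2.67, SE 0.59, adjusted p = 0.0211). ckba, the brain-type creatine kinase, had 207 and 158 TPM at 7 dpi and 43.8 to 66.3 TPM in controls (1.65, SE 0.28, adjusted p = 0.00695). The glutamine synthetase gene glula (ENSAMXG00000019301) rose by 2.09 and the polyamine acetyltransferase gene sat1a.2 by 1.29. In all 6 of 34 genes rose and 1 fell, with a median of 0.71. The 6 rises without 7 dpi replicate 1 had adjusted p of 0.105 to 0.218, while arg2 held. otc was lost without control replicate 3 (0.0594), and glula and sat1a.2 without 7 dpi replicate 2 (0.0775 and 0.134) or control replicate 2 (0.0583 and 0.0738), glula also without control replicate 1 (0.0751).

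A pair of further steady calls encode metabolic enzymes. mat1a, which makes S-adenosylmethionine, had 15.11 and 9.84 TPM at 7 dpi, against 0.714, 0.941 and 1.38 TPM in controls, a steady call (2.73, SE 0.36, adjusted p = 0.00103). gch2, a GTP cyclohydrolase that opens the pathway to tetrahydrobiopterin and pteridine pigments, had 2.76 and 2.31 TPM at 7 dpi, against 0.204, 0.131 and 0.222 TPM in controls (1.57, SE 0.15, adjusted p = 7.84e-05). Chosen after their values were seen, bhmt, which remethylates homocysteine, had 275 and 403 TPM at 7 dpi and 59.0 to 84.7 TPM in controls (2.15, SE 0.43, adjusted p = 0.0155), and qdpra, which recycles biopterin, 15.7 and 8.20 TPM against 0.0715 to 1.34 TPM (2.92, SE 0.56, adjusted p = 0.0121). The adjusted p of bhmt was 0.0887 and 0.0747 without 7 dpi replicates 1 and 2, and that of qdpra 0.168 without replicate 1.

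Protein synthesis and folding genes gave a few steady calls. hspa8, the constitutive cytosolic Hsp70, had 1047 and 1008 TPM at 7 dpi, against 298, 359 and 219 TPM in controls (log2 change 1.84, SE 0.25, adjusted p = 0.00143), and it was the only one of 65 chaperone genes called by this fit (median 0.19). rpl22l1, a paralogue of ribosomal protein L22, had 297 and 274 TPM at 7 dpi, against 90, 72.5 and 77.3 TPM in controls (1.83, SE 0.23, adjusted p = 0.000901). rpl3 had 680 and 715 TPM at 7 dpi, against 256, 171 and 239 TPM in controls (1.67, SE 0.32, adjusted p = 0.0128, and 0.124 without 7 dpi replicate 1). These were the 2 of 80 cytosolic ribosome genes that rose, beside 3.11% of all genes tested, and 0 fell. The ribosomal median was 0.34, with 76 of the 80 changes above 0. Without scaling 15 of them were called higher. The elongation factor gene eef1db had 56.7 and 59.4 TPM at 7 dpi and 17.6 to 18.7 TPM in controls, with little spread within either group (1.62, SE 0.21, adjusted p = 0.00100).

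Macrophage genes were among those that rose at 7 dpi. Of 58 tested 14 rose and 0 fell, with a median log2 change of 1.27 against 0.03 over all genes. irf8, a transcription factor of macrophages, had 11.3 and 9.88 TPM at 7 dpi, against 1.89, 1.3 and 4.0 TPM in controls (1.85, SE 0.29, adjusted p = 0.00460). A gene of the mannose receptor mrc1b (ENSAMXG00000013207) had 73.7 and 35.7 TPM at 7 dpi, against 6.16, 8.83 and 7.36 TPM in controls (2.64, SE 0.54, adjusted p = 0.0176), and a pair of further mrc1b genes rose by 2.90 and 1.83. The lysosomal proteases ctsba and ctsla rose by 1.49 and 1.43, and ctsba had 298 and 141 TPM at 7 dpi and 66.4 to 80.9 TPM in controls. apoeb, an apolipoprotein E that carries lipid out of macrophages, had 1361 TPM in 7 dpi replicate 1 and 464 TPM in replicate 2, against 26.2, 22.4 and 31.3 TPM in controls (4.86, SE 1.22, adjusted p = 0.0367). hmox1a, which breaks down heme, rose by 1.79 and the complement gene c1qb by 1.94. MPEG1, the perforin-2 of macrophages, had 66.3 and 43.2 TPM at 7 dpi and 12.8 to 22.0 TPM in controls but was not called (1.52, SE 0.45, adjusted p = 0.0651), and the colony stimulating factor receptor gene csf1ra changed by 0.27 (adjusted p = 0.531).

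The summed level of the macrophage list was 4689 TPM in 7 dpi replicate 1 and 2633 TPM in replicate 2, against 1147, 1486 and 1717 TPM in controls. The list's median deviation from the control mean was 1.54 in replicate 1 and 0.77 in replicate 2, so the libraries differed in size but not in direction. Without replicate 1 none of the 14 calls held (adjusted p 0.0752 for irf8, 0.213 for mrc1b ENSAMXG00000013207, 0.263 for ctsba, 0.294 for apoeb), and without control replicates 1, 2 and 3 the number called was 4, 8 and 5. Without the filter on low values 6 were called.

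Some lymphocyte genes rose as well. Of 27 genes tested 7 rose and 0 fell (median 0.88). zap70, a kinase of the T cell receptor, had 4.89 and 3.03 TPM at 7 dpi, against 0.757, 1.1 and 0.610 TPM in controls (1.43, SE 0.27, adjusted p = 0.0120). cd8b, a coreceptor of cytotoxic T cells, had 1.32 and 1.02 TPM at 7 dpi, against 0, 0.0596 and 0.211 TPM in controls (1.00, SE 0.20, adjusted p = 0.0154). ikzf1, a lymphocyte transcription factor, and il2rga, the common cytokine receptor chain, rose by 1.5 and 1.34, and the T cell kinase gene lck by 1.05 (adjusted p = 0.0473). The B cell receptor gene cd79a had 5.08 TPM in 7 dpi replicate 1 and 0.946 TPM in replicate 2, against 0, 0 and 0.222 TPM in controls, and was not called (1.69, SE 0.48, adjusted p = 0.0596). Without 7 dpi replicate 1 none of the 7 calls held (adjusted p 0.168 to 0.435), and without control replicates 1 and 3 the number called was 2 each. Without the filter on low values 3 were called.

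The other immune lists each had 1 or 2 called members, beside 3.11% of all genes tested that rose. The interferon factor irf7 rose by 1.38 (1 of 25 interferon response genes, median 0.53), the proteasome activator psme2 by 1.29 (1 of 23 antigen presentation genes, median 0.48), the cytokine subunit il12bb by 1.43 (1 of 49 cytokine genes, median 0.24) and the oxidase subunit ncf1 by 2.06 (1 of 21 neutrophil genes, median 0.58). f13a1b, a transglutaminase subunit of clotting factor XIII that is also made by macrophages, had 203 and 92.4 TPM at 7 dpi, against 20.6, 29.0 and 25 TPM in controls (2.43, SE 0.56, adjusted p = 0.0268). With c1qb it made 2 of 22 complement and coagulation genes (median 0.66), and 0 genes fell in any of these 5 lists. The neutrophil peroxidase gene mpx had 1.77 and 0.556 TPM at 7 dpi against 0.233, 0 and 0.0555 TPM in controls (adjusted p = 0.292), and mmp9 and the 2 il1b genes tested were not called. The antigen presentation gene cd74a had 274 and 219 TPM at 7 dpi and 272 to 325 TPM in controls (-0.30, adjusted p = 0.757). Without 7 dpi replicate 1 the calls of irf7, psme2, il12bb, ncf1 and f13a1b were lost (0.190 to 0.413), and each was also lost without control replicate 1 (0.0650 to 0.113) and control replicate 3 (0.0573 to 0.105). Without control replicate 2 psme2 and ncf1 were lost (0.0583 and 0.0841), and without 7 dpi replicate 2 irf7, il12bb and psme2 (0.0644 to 0.0949). A pseudocount of 0.1 ended the calls of irf7 and psme2 (0.129 and 0.0554), the absence of a filter those of irf7, psme2 and ncf1 (0.0518 to 0.0748), and quantile normalization that of ncf1 (0.0580).

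**Figure D4:**
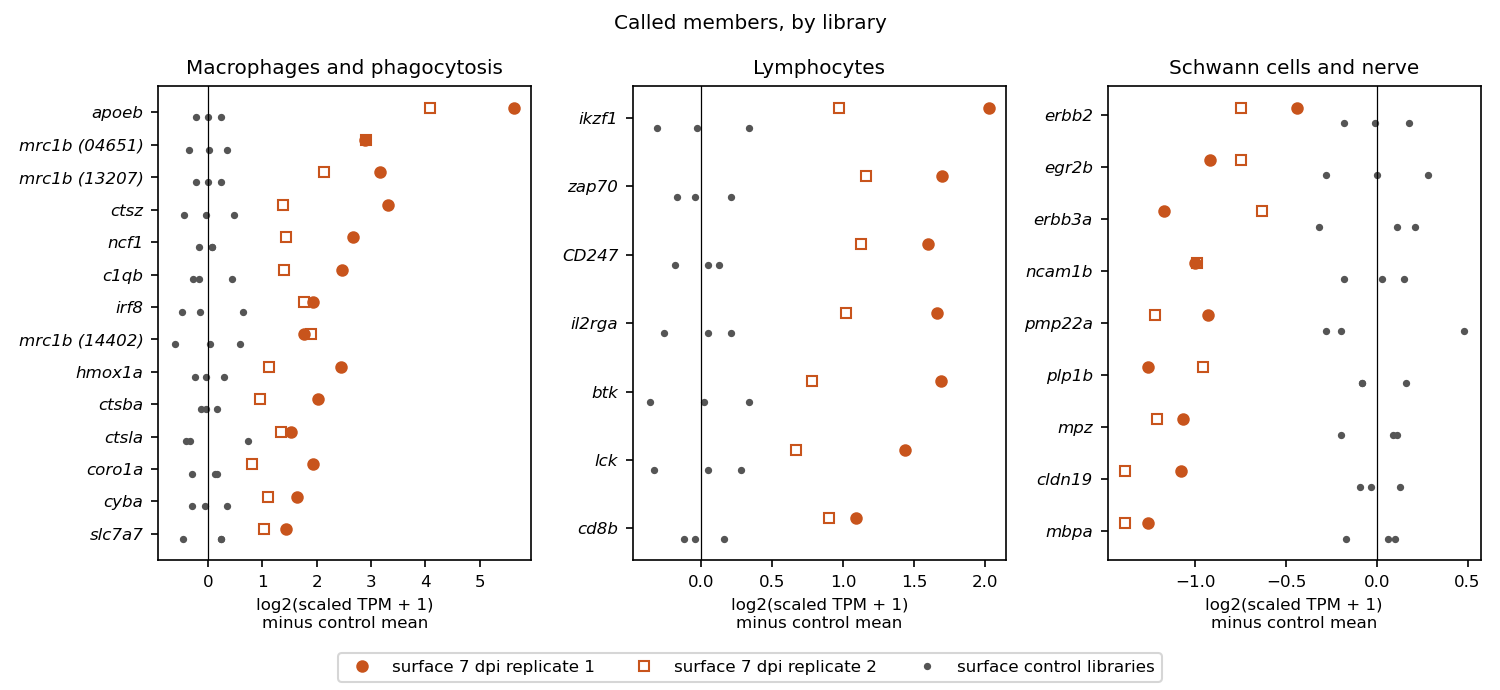
Log2(scaled TPM + 1) minus the control mean (x axis) of every called member of the macrophage, lymphocyte and Schwann cell lists, by library. Filled circles are 7 dpi replicate 1, open squares 7 dpi replicate 2 and dots controls. In the macrophage and lymphocyte panels replicate 1 lies farther right than replicate 2 for most genes, and in the Schwann cell panel both lie left of the controls.

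Collagen and matrix genes did not rise as a group. Of 71 tested 3 rose and 0 fell, with a median of -0.16 that was 0.17 without scaling. The absence of falls depended on the fit. Higher and lower genes numbered 4 and 4 with the replicate block, 2 and 3 without control replicate 3, and 3 and 1 after quantile normalization. Over all genes tested 3.11% rose and 1.48% fell. fn1b, one of a pair of fibronectin genes, had 207 and 63.2 TPM at 7 dpi, against 27.6, 29.8 and 34.8 TPM in controls (1.87, SE 0.40, adjusted p = 0.0202), and its paralogue fn1a had 63.7 and 27.3 TPM against 22.7, 12.3 and 6.34 TPM (1.69, SE 0.53, adjusted p = 0.0791). The elastic fibre genes MFAP2 and efemp2a rose by 2.87 (SE 0.67, adjusted p = 0.0269) and 1.73 (SE 0.41, adjusted p = 0.0292). col1a1a, a chain of fibrillar collagen, had 1008 and 635 TPM at 7 dpi and 2448, 943 and 634 TPM in controls (-0.50, SE 0.54, adjusted p = 0.666), and col1a2, postnb and tnc were not called either. Of 67 matrix enzymes 2 rose and 1 fell. The sheddase gene adam8a rose by 2.71 and the collagen propeptidase gene adamts14 by 1.04, and the collagen lysyl hydroxylase gene plod2 changed by -2.07 (SE 0.41, adjusted p = 0.0138). plod2 had 5.83 and 2.95 TPM at 7 dpi, against 39.4, 18.4 and 12.4 TPM in controls. Of 29 fibroblast and tendon genes cthrc1a rose (1.61) and egr2b fell (-0.84). These 8 calls had, without 7 dpi replicate 1, an adjusted p of 0.0523 (plod2) to 0.404, and without replicate 2 those of plod2, adamts14 and egr2b were 0.0797, 0.0822 and 0.0633. Leaving out 1 control gave 0.0512 to 0.125 for calls lost among MFAP2, efemp2a, adam8a, adamts14, cthrc1a and egr2b, each of which lost its call without at least 1 control. egr2b was lost without scaling (0.279), and cthrc1a and adamts14 with a pseudocount of 0.1 (0.111 and 0.0625) or without the filter (0.0664 and 0.0730), adamts14 also after quantile normalization (0.0633).

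Some genes of Schwann cells, which wrap nerve fibres in myelin, fell. Of 35 tested 0 rose and 9 fell, 12 had a change above 0, and the median was -0.30, which was -0.08 without scaling. mbpa, which encodes myelin basic protein, had 29.0 and 26.3 TPM at 7 dpi, against 62.8, 73.8 and 76.0 TPM in controls (-1.32, SE 0.33, adjusted p = 0.0347). mpz, the main protein of peripheral myelin, had 28.5 and 25.9 TPM at 7 dpi, against 53.2, 65.0 and 65.9 TPM in controls (-1.14, SE 0.30, adjusted p = 0.0416). The myelin genes plp1b, pmp22a and cldn19 fell by 1.11, 1.07 and 1.24, and the neuregulin receptor genes erbb2 and erbb3a by 0.59 and 0.90. Both 7 dpi libraries were below every control in all 9 genes, as in all 250 genes called lower. These calls depended on the processing: without scaling 0 of the 9 were called (adjusted p 0.0789 to 0.664), without 7 dpi replicate 1 also 0 (0.131 to 0.353), and without 7 dpi replicate 2 or control replicates 1, 2 and 3 the number was 2, 4, 2 and 2.

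At the neuromuscular junction, chrna1 rose as given above and dag1, clcn1b and erbb2 fell, 1 up and 3 down of 24 genes. dag1, which encodes dystroglycan and links the cytoskeleton to the matrix, had 15 and 19.2 TPM at 7 dpi, against 57.9, 57.7 and 36.7 TPM in controls (-1.49, SE 0.26, adjusted p = 0.00723). clcn1b, the muscle chloride channel, had 7.83 and 6.68 TPM at 7 dpi and 14.1 to 21.2 TPM in controls (-1.15, SE 0.23, adjusted p = 0.0161). Of 51 endothelial genes 2 rose and 3 fell (median -0.31). sox18, a transcription factor of vessel and lymphatic development, had 2.61 and 1.96 TPM at 7 dpi, against 8.87, 6.73 and 7.09 TPM in controls, and was a steady call (-1.38, SE 0.19, adjusted p = 0.00169). plvapb, a diaphragm protein of capillary walls, fell by 1.15 and the receptor gene s1pr1 by 0.92, while the transcription factor genes lmo2 and fli1b rose by 0.76 and 0.92. pecam1 and cdh5, general endothelial markers, changed by -0.67 (adjusted p = 0.0540) and -0.47 (adjusted p = 0.395). Without 7 dpi replicate 1 the adjusted p was 0.124 for dag1, 0.119 for clcn1b, 0.120 for plvapb, 0.195 for s1pr1, 0.380 for lmo2 and 0.505 for fli1b. The falls of dag1, clcn1b, plvapb and s1pr1 were not called without scaling (0.0884 to 0.246). clcn1b was also lost without 7 dpi replicate 2 (0.0691), plvapb and s1pr1 without it or control replicate 1 (0.0507 to 0.0870), s1pr1 without control replicate 3 (0.0566), and lmo2 and fli1b without any one control (0.0653 to 0.117) and without the filter (0.0539 and 0.0669), fli1b also with a pseudocount of 0.1 (0.0554).

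Growth regulators of muscle were called in both directions. Of 83 growth factor and signalling genes 3 rose and 6 fell (median -0.38). igfbp5b, a binding protein of insulin-like growth factors, had 5.38 and 5.74 TPM at 7 dpi, against 34.2, 18.8 and 22.5 TPM in controls (-1.95, SE 0.25, adjusted p = 0.000901). ghra, a growth hormone receptor, had 9.70 and 8.18 TPM at 7 dpi, against 30.9, 23.0 and 30.7 TPM in controls (-1.55, SE 0.25, adjusted p = 0.00512). Both were steady calls, ghra from outside the list. mstnb, a myostatin that restrains muscle growth, had 4.43 and 3.89 TPM at 7 dpi, against 31.2, 16.5 and 27.06 TPM in controls (-2.28, SE 0.58, adjusted p = 0.0383). fsta, a follistatin that binds and blocks myostatin, also fell, to 2.21 and 1.98 TPM at 7 dpi against 8.81, 11.2 and 6.27 TPM in controls (-1.63, SE 0.35, adjusted p = 0.0191). fgf6a, a muscle fibroblast growth factor, fell by 1.77 and pdgfbb by 1.2 and LTBP3, which holds transforming growth factor beta in the matrix, by 0.90, and the Wnt-responsive transcription factor gene tcf7 rose by 1.91, with met and notch1a as given above. igf2b and igf1 were not called, at 0.83 (adjusted p = 0.0695) and -0.23 (adjusted p = 0.814). Among 54 genes of ubiquitin ligases, autophagy and atrophy 1 rose (ctsla) and 4 fell, mstnb and fsta with bnip3la (-0.68) and smurf2 (-0.63). Without 7 dpi replicates 1 and 2 the adjusted p was 0.215 and 0.122 for mstnb, 0.148 and 0.0689 for fsta, 0.0838 and 0.112 for fgf6a, 0.0985 and 0.0708 for pdgfbb, and 0.224 and 0.0689 for tcf7, and 0.158 and 0.173 for bnip3la, and 0.130 and 0.251 for smurf2. mstnb and fgf6a were also lost without control replicate 1 or 3 (0.0524 to 0.0938), tcf7 without 1 or 2 (0.0667 and 0.0716), bnip3la and smurf2 without any one control (0.0626 to 0.0999), and fsta, fgf6a, pdgfbb, bnip3la and smurf2 without scaling (0.0521 to 0.516). tcf7 was lost with a pseudocount of 0.1 (0.0519), mstnb and smurf2 without the filter (0.0575 and 0.0680), and LTBP3 in every fit that left out a library (0.0533 to 0.185) and without scaling (0.353).

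Proliferation genes separated the 7 dpi libraries from each other. Of 84 genes of DNA replication and mitosis 0 were called by limma in either direction. Of these, 8 had an unadjusted p under 0.05, as did 3437 of all 16884 genes tested. A change above 0 was found for 79 of the 84, with a median of 0.43 that was -0.03 without 7 dpi replicate 1. A single gene was called higher without scaling, without control replicate 1 and without 7 dpi replicate 2. The list's summed level was 478 TPM in 7 dpi replicate 1 and 231 TPM in replicate 2, against 332, 195 and 205 TPM in controls. pcna, the replication clamp, had 28.5 and 9.21 TPM at 7 dpi, against 13.9, 6.77 and 5.94 TPM in controls (adjusted p = 0.295), and top2a and cdk1 were not called either. Of 41 clock genes 0 were called by limma and 10 had an unadjusted p under 0.05 (median -0.39, and -0.08 without scaling), although 7 were called lower without control replicate 2 and 2 without control replicate 1. Among 32 skin genes krt18b rose by 1.34 (adjusted p = 0.0233, and 0.222, 0.0518 and 0.0588 without 7 dpi replicate 1 and control replicates 2 and 3), with a list median of -0.40 and krt5 not called. Of 14 erythrocyte genes 0 were called by limma in any fit of 7 dpi against control that kept both 7 dpi libraries. In the main fit of this comparison 0 of the 14 had an unadjusted p under 0.05. Against 1 dpi, sptb (1.15) was called higher and rhag (-0.84) lower. Of 13 pigment cell genes gch2 and xdh rose (median 0.05, and -0.02 after quantile normalization), xdh by 1.54 (adjusted p = 0.0155, and 0.209 without 7 dpi replicate 1), and of 59 lipid genes apoeb alone rose in this fit (median -0.06, and 0.26 without scaling).

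**Figure D5:**
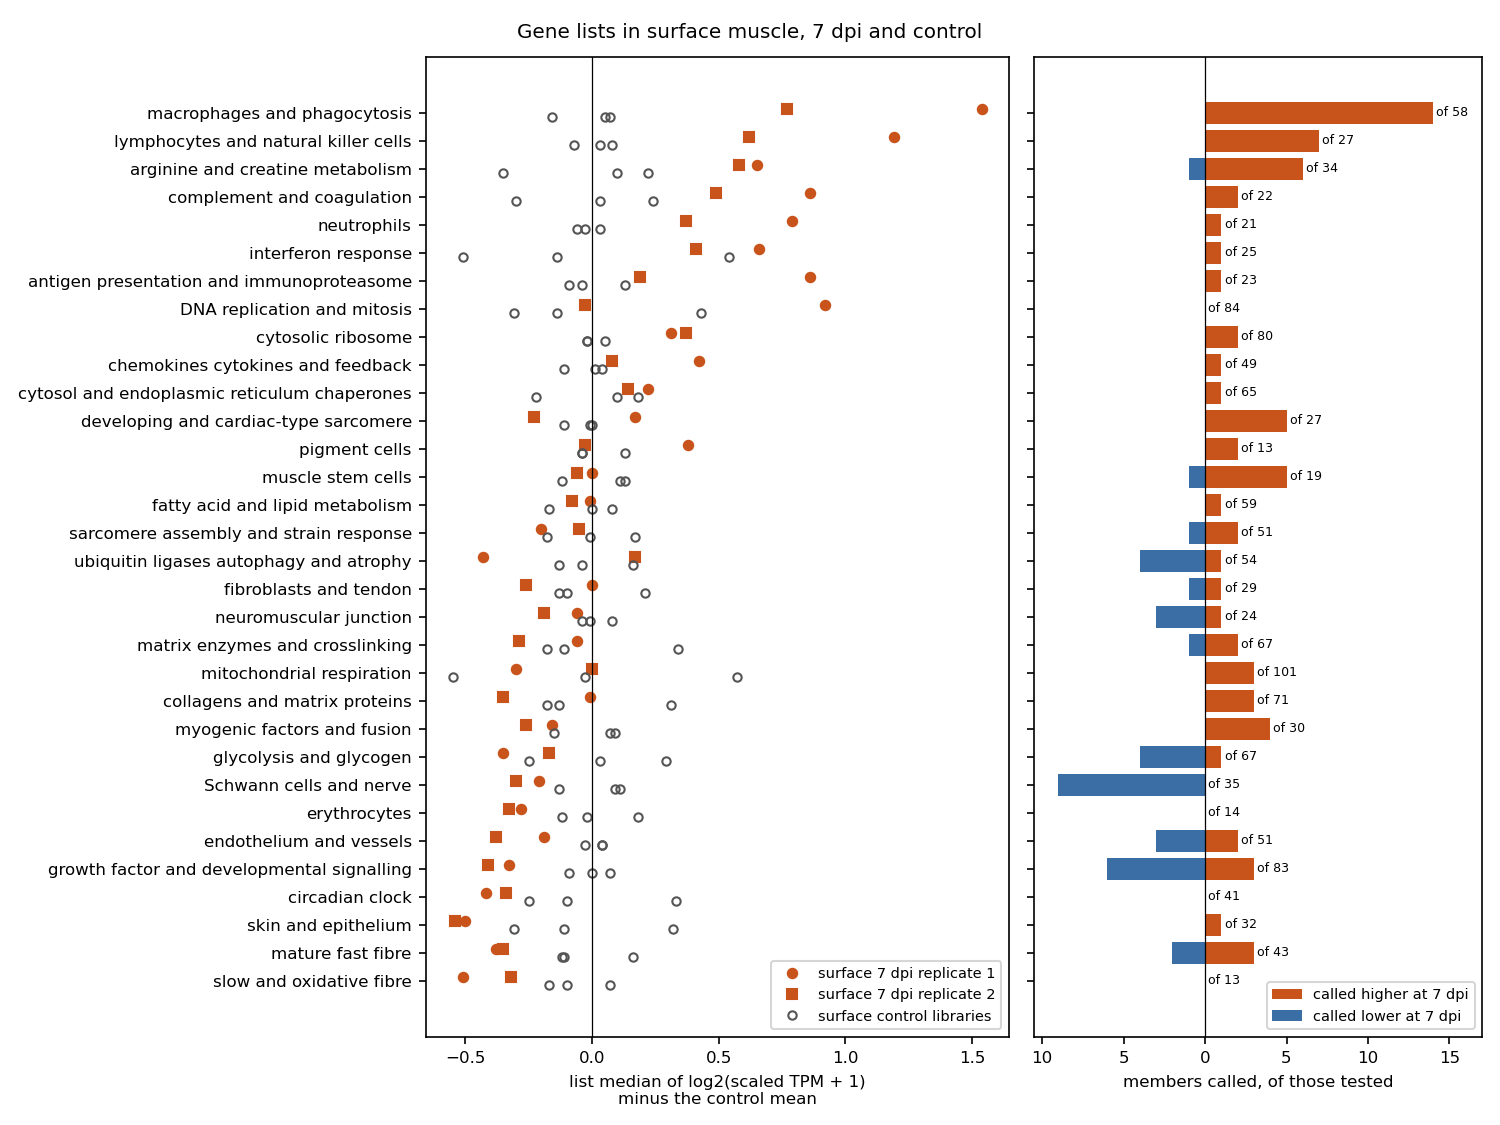
Left, median deviation of log2(scaled TPM + 1) from the control mean over the tested members of each of 32 gene lists (x axis), for 7 dpi replicate 1 (orange circles), 7 dpi replicate 2 (orange squares) and the 3 controls (open circles). Right, members called higher or lower at 7 dpi, with the number tested. Macrophage genes stand farthest right, at 1.54 and 0.77 at 7 dpi, and Schwann cell genes have the most members called lower.

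Further steady calls belong to none of these lists. The AP-1 subunit gene fosl1b had 5.74 and 4.86 TPM at 7 dpi, against 0.422, 0 and 0 TPM in controls (log2 change 2.48, SE 0.31, adjusted p = 0.000878). TMC2, of the channel family that senses sound in hair cells, had 5.91 and 4.38 TPM at 7 dpi, against 0.0437, 0.250 and 0.388 TPM in controls (2.32, SE 0.18, adjusted p = 2.59e-05). rfx6, a transcription factor known from the pancreas, had 2.49 and 2.30 TPM at 7 dpi, against 0.0728, 0.119 and 0 TPM in controls (1.68, SE 0.23, adjusted p = 0.00169). smim15, si:ch211-147m6.1, vwa11 and zgc:63568 rose by 1.94, 2.99, 2.26 and 1.89. In each of these 7 genes both injured libraries were above every control, as in all 525 genes called higher. The other 15 steady calls carry identifiers with no symbol, 14 of them higher and 1 lower.

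The 7 dpi libraries were also set against surface muscle at 1 dpi, which asks what changed between the first day and the first week after injury. Of the genes tested 371 (2.2%) were higher and 370 (2.19%) lower at 7 dpi than at 1 dpi, and 168 and 660 without scaling. Of the 44 steady calls against control, 31 also differed from 1 dpi in the same direction and 2, fosl1b and bxdc2, in the opposite one. fosl1b averaged 5.30 TPM at 7 dpi and 19.1 TPM at 1 dpi (log2 change -1.67, adjusted p = 0.00862). Of the 32 lists, chaperones had the most called members: of 65 chaperone genes 2 were higher and 19 lower at 7 dpi than at 1 dpi, with a median of -0.37 (-0.79 without scaling). Those lower included hspa5, the Hsp70 of the endoplasmic reticulum, by 1.84, its partner dnajb9a by 1.31, PDIA6 by 1.97 and the cytosolic hspa1b by 2.90 on the log2 scale, while hspa8 was higher by 1.21 (adjusted p = 0.0144). Of 51 endothelial genes 0 were higher and 9 lower (median -0.69), including tie1 (-0.77) and pecam1 (-0.74).

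Immune genes had mixed directions over this interval. Of 58 macrophage genes 3 were higher and 2 lower (median 0.11), and irf8 had 10.6 TPM on average at 7 dpi and 13 TPM at 1 dpi (-0.26, adjusted p = 0.694). Of 21 neutrophil genes 0 were higher and 3 lower, with mmp9 at 13.7 and 4.69 TPM at 7 dpi and 62.4 TPM on average at 1 dpi (-2.78, adjusted p = 0.0174). Of 49 cytokine genes 0 were higher and 6 lower, among them the feedback inhibitor genes socs3a (-2.27) and socs3b (-1.67). Of 27 lymphocyte genes zap70 (1.14) and cd8b (0.76) were higher and cxcr4a (-1.09) lower. Fast-fibre genes were called in 1 direction only, 5 higher and 0 lower of 43 (median 0.39, and -0.03 without scaling), with casq1b, the calcium store of the sarcoplasmic reticulum, higher by 2.39. Of 34 arginine and creatine genes 4 were higher (ASS1 3.36, otc 3.44, asl 1.49 and gatm, the first enzyme of creatine synthesis, 3.73) and 2 lower (arg2 and odc1). This comparison and that with controls share the 7 dpi libraries and are not independent. Without 7 dpi replicates 1 and 2 the count of genes was 343 and 199, and without 1 dpi replicate 2 it was 348.

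The response at 7 dpi was compared between forms as a difference of differences, surface 7 dpi minus surface control less cave 7 dpi minus cave control. Of the genes tested 8 (0.0474%) were called in either direction, 3 with a positive and 5 with a negative difference, and 808 had an unadjusted p under 0.05. Of the 44 steady calls 3 were among the 8: gch2, myl4 and 1 gene without a symbol. Levels in cave muscle at 7 dpi can be set beside those in surface muscle for 5 genes of the response. actc1a averaged 501 TPM in surface and 558 TPM in cave muscle at 7 dpi, mymk 4.06 and 5.82 TPM, ankrd1b 124 and 179 TPM, ndufa4 121 and 81.5 TPM, and mat1a 12.5 and 24.9 TPM. These 7 dpi levels leave out the controls. actc1a averaged 1.21 TPM in surface controls and 22.6 TPM in cave controls, and its difference of response was 3.04 (SE 1.65). ankrd1b averaged 0.318 and 0.197 TPM in the same controls, with a difference of -0.71 (SE 0.84). None of these 5 genes had a called difference of response, which does not show that the forms respond alike. Without cave 7 dpi replicates 1 and 2 the count was 3 each, without surface 7 dpi replicates 1 and 2 it was 4 and 19, and it was 2 with a pseudocount of 0.1.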

How the data were processed

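Poly(A) RNA of skeletal muscle was sequenced by the authors, who deposited TPM values per gene, made with STAR 2.7.3a and RSEM 1.3.0 per the submitters' processing notes. Neither the genome build nor the annotation is named in the labels or the file, and TPM does not carry sequencing depth. Here each library was divided by a median-of-ratios factor over 9467 genes (1.05 and 1.03 at 7 dpi, 0.687 to 0.902 in controls), and genes were kept that reached 1 TPM in 2 or more of the 20 libraries (16884 of 27420). log2(scaled TPM + 1) was fitted with limma 3.58.1 in R 4.3.3, with 8 group means, 12 residual degrees of freedom, a mean-variance trend and Benjamini-Hochberg adjustment. An exact rank-sum test of 2 against 3 libraries cannot give a two-sided p under 0.2, so none was used. The fit was also run on simulated data with independent noise in each library. Such data cannot show how far the calls here lean on single libraries, and their outcome is not used.

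The text names the 20 largest rises and 10 largest falls among steady calls with a symbol, as far as there were so many, up to 4 called members per gene list with the smallest adjusted p, a fixed set of genes, and further called list members. Of the 61 fixed genes 15 were not found by name, and lyz, per1a and per2 are not given singly. acta1b (-0.25, limma adjusted p = 0.9) and the 2 atp2a1 genes (-0.64 and 0.11, adjusted p = 0.496 and 0.957) were not called. The members and lists were chosen with earlier results of these data known. The settings varied were the pseudocount (0.1), the filter (none, or a mean of at least 5 TPM), the scaling (none, or quantile normalization), only the compared groups, no trend, a replicate block, and each library left out. Promoter sequences were not analysed here.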

Additional observations from a re-analysis of the deposited data

Results flagged for a closer look

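The response at 7 dpi differed between surface and cave form by the interaction test for 3 genes with a symbol. gch2 had 2.76 and 2.31 TPM in surface muscle at 7 dpi and 0.204, 0.131 and 0.222 TPM in its controls, and was listed at 0 in all 5 cave libraries of the comparison. The difference was 1.57 (SE 0.21, limma adjusted p = 0.00852). myl4 had 0.621 and 1.44 TPM in surface and 5.27 and 5.38 TPM in cave muscle at 7 dpi, and was listed at 0 in the controls of both forms, a difference of -1.67 (SE 0.23, adjusted p = 0.00852). SNORD15 (ENSAMXG00000026795), a small nucleolar RNA, had 1.62 and 1.52 TPM in surface muscle at 7 dpi and was listed at 0 in its controls, whereas the cave libraries were listed at 0 at 7 dpi and had 1.83, 1.92 and 2.19 TPM in controls. That difference was 2.93 (SE 0.32, adjusted p = 0.00132). All 3 genes were at low levels, and SNORD15 shares its symbol with further identifiers. With gch2 listed at 0 in the cave libraries, its difference holds the surface response only. gch2 and myl4, but not SNORD15, lost the call in some fits that left out a library. With a pseudocount of 0.1, 2 differences between forms were called in place of 8.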

How the results depend on the processing

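The count of 775 genes called at 7 dpi relative to control was 13 with only the compared groups fitted, and 66 to 603 with 1 library left out. Of the 44 steady calls 44 were also called with a pseudocount of 0.1, no filter, no scaling, quantile normalization, no trend and the replicate block, 23 with a mean of at least 5 TPM, where fewer genes are tested, and 5 with only the compared groups. With the replicate block 594 genes were called, 279 higher and 315 lower, and 409 of the 775 were among them. Deviations of same-numbered 7 dpi and control libraries correlated at 0.248 and 0.0145, but those of 7 dpi replicate 2 and control replicate 3 at 0.249. The deviations of the 2 libraries at 7 dpi mirror each other (-1), so their values cannot show pairing. Same-numbered control and 1 dpi pairs correlated at 0.137, 0.108 and 0.235, and differently numbered ones at -0.177 to 0.0535. The labels give no shared source. Of the named genes called in the main fit, 100 kept their call with the replicate block and 50 lost it. The losses given gene by gene above do not cover the replicate block. It gave 18 lower genes of glycolysis and glycogen in place of 4 and 10 lower growth factor genes in place of 6. Higher genes became 1 in place of 5 for muscle stem cells, 4 in place of 14 for macrophages and 2 in place of 7 for lymphocytes. Lower Schwann cell genes became 3 in place of 9. Against 1 dpi, 741 genes became 475 with the replicate block, 69 with only the compared groups, and 199 to 503 with 1 library left out. The 8 differences between forms became 2 with a pseudocount of 0.1, 29 without a filter, 1 with a mean of at least 5 TPM, 14 with only the compared groups, 5 with the replicate block, and 3 to 19 with 1 library left out. No named gene called in the comparison with controls turned direction under these alternatives, but uncalled genes did, and the median of 14 of the 32 lists turned sign under at least 1 alternative, 11 of them without scaling. Depth is unknown, so low TPM values have no counting error, and 2 libraries limit every 7 dpi estimate.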

Other observations

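Genes outside the lists above, chosen after their values were seen, also differed at 7 dpi relative to control. nes, which encodes the intermediate filament nestin of young muscle, had 63.8 and 35.2 TPM at 7 dpi, against 2.87, 3.2 and 3.24 TPM in controls (log2 change 3.56, SE 0.74, limma adjusted p = 0.0179). clu, the secreted chaperone clusterin, had 1010 and 652 TPM at 7 dpi, against 133, 77.3 and 100 TPM in controls (2.99, SE 0.55, adjusted p = 0.00991). The laminin receptor gene itga6a had 8.25 and 3.92 TPM at 7 dpi and 0.122 to 0.560 TPM in controls (2.29, SE 0.39, adjusted p = 0.00695). None of the 3 was called without 7 dpi replicate 1 (0.190, 0.145 and 0.130).

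Among genes that fell, NR4A1 (ENSAMXG00000014433), an immediate early nuclear receptor, had 46.8 and 10.5 TPM at 7 dpi, against 434, 143 and 442 TPM in controls (-3.69, SE 0.67, adjusted p = 0.00923, and 0.0682 without 7 dpi replicate 2). clec3bb, a tetranectin, had 7.99 and 11.3 TPM at 7 dpi and 44.6 to 45.8 TPM in controls (-2.14, SE 0.33, adjusted p = 0.00404, and 0.0872 without 7 dpi replicate 1). The semaphorin guidance genes sema3d, sema3ab and sema3aa were lower by 1.39, 1.3 and 1.63 on the log2 scale, and each lost its call without 7 dpi replicate 2 (0.0501, 0.0782 and 0.0884). sema3aa was also lost without 7 dpi replicate 1 and control replicates 1 and 2 (0.0535 to 0.192), and sema3ab and sema3aa without scaling (0.139 and 0.0579).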
